A study of Homo sapiens with 12 samples.

Results

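A pair of untreated human pancreatic ductal adenocarcinoma lines was compared by H3K27ac ChIP-seq: MiaPaCa2, usually described as a high-grade line, and CFPAC1, usually described as a low-grade line. The comparison uses the 4 libraries that the labels give as untreated, 2 of MiaPaCa2 and 2 of CFPAC1, of 12 libraries in all. MiaPaCa2 was grown in DMEM and CFPAC1 in IMDM, each with fetal bovine serum, L-glutamine and penicillin/streptomycin, so line and medium cannot be told apart. The same anti-H3K27ac antibody was used throughout. Of the other 8 libraries, 4 came from the same lines after 2 hours of human interferon beta (IFN-β) at 1000 U/ml and were used to compare the lines again. The remaining 4 were CFPAC1 clones with an empty CRISPR vector or without IRF1. All 12 libraries entered the shared estimate of spread, the choice of each gene's window and the filter for genes tested. Most of the 12 are CFPAC1 libraries, so that choice and that filter weigh CFPAC1 coverage more. The labels do not say whether the libraries of a line came from separate cultures. The p-values measure only the spread between libraries within the 6 groups of the model, which may be technical. In the clone groups that spread may also hold differences between clones. They name HiSeq2000 or NextSeq500 sequencing without assigning libraries, so no batch could be tested.

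H3K27ac is the acetylation of lysine 27 of histone H3. It marks the promoters of active genes and active enhancers, and broad acetylated domains often surround the genes that define a cell's identity. Pancreatic ductal cancer cells range from epithelial, gland-forming cells that keep endodermal transcription factors and mucins to poorly differentiated cells that have lost cell adhesion and express vimentin. Keratins, cadherin-1 and the grainyhead-like factors mark the epithelial end of that range, while the SNAI, ZEB and TWIST repressors are known for driving epithelial to mesenchymal transition.

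The MiaPaCa2 lists held 85442 and 71515 peaks over 78.2 and 71.8 Mb, against 97416 and 102802 peaks over 84.7 and 94.8 Mb in CFPAC1. Total covered length averaged 75 ± 4.54 Mb in MiaPaCa2 and 89.8 ± 7.15 Mb in CFPAC1 (SD, n = 2 each). Peaks wider than 4 kb held 23.6 and 24.9% of the covered length in MiaPaCa2, against 13.0 and 14.3% in CFPAC1, and the widest peaks spanned 46526 and 47745 bp in MiaPaCa2 and 24839 and 25229 bp in CFPAC1. The libraries of the 2 lines did not overlap in any of these measures. The Jaccard index, the shared covered length over the joint covered length, was 0.628 within MiaPaCa2 and 0.652 within CFPAC1, and 0.253 to 0.278 between the lines. Read depth is unknown, because the peak lists give no read counts.

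The value per gene is its covered length: the bp under peaks in a window of 5 kb either side of a gene end, at most 10000 bp. Of the ends annotated for a gene, the one with the larger mean over all 12 libraries was taken. Among the 15513 genes tested the window held a start listed in RefSeq for 67.4%, and 19.4% had no listed start to compare with. For the remaining 13.1%, every listed start lay over 5 kb from the window centre. A window of this last kind is called the other gene end below. Strand was not used, so the other gene end can be either end of a gene, also one upstream of its listed starts. Such windows are named for list members and for the largest differences in these Results. Some genes named below share their window with a neighbour, from which they cannot be told apart: ELF3 with RNPEP, CLDN4 with METTL27, KRT19 with KRT15, KRT18 with KRT8, FOXA1 with TTC6, HOXA6 with HOXA5, HOXC5 with HOXC4 and HOXC8, JAG2 with NUDT14, RNF43 with HSF5, TEAD2 with DKKL1, E2F1 with NECAB3, STAT2 with APOF, B2M with PATL2 and IL18 with TEX12. Others are named where they appear. Differences are MiaPaCa2 minus CFPAC1 of log2(bp + 500) with their standard error (SE), and adjusted p-values are those of limma after Benjamini-Hochberg adjustment over all genes tested, with a call at an adjusted p under 0.05. No difference is printed in these results for a gene at 0 bp in both libraries of a line, since its size would be set by the 500 bp added. Such a line adds almost no spread to the shared estimate, and the p-value is then carried by the other groups.

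A set of 6 promoters was picked as examples of on-or-off differences between the lines. All 250 bases of each lay under a peak in both libraries of 1 line, and under none in either library of the other. They are the 250 bases before the gene start from RefSeq on GRCh38.p14, 5′ to 3′ on the gene's strand. Capitals mark matches, on either strand, to a small set of known motifs spelled out further below. The first 3 were covered in MiaPaCa2 and the last 3 in CFPAC1.
DDR2, a collagen receptor kinase, chr1:162630613-162630862, + strand: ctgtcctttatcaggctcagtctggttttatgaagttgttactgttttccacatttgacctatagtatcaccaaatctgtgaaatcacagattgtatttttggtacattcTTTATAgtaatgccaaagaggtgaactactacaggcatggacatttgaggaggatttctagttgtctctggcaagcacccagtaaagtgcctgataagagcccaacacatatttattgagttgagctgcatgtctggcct
CAVIN2, a coat protein of caveolae, chr2:191847089-191847338, - strand: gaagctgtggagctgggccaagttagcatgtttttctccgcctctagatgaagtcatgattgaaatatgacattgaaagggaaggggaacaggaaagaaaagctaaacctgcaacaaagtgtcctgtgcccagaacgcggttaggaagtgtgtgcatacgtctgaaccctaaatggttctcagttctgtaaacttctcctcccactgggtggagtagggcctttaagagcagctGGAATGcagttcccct
SMAD4, the shared mediator of TGF-β and BMP signals, chr18:51029963-51030212, + strand: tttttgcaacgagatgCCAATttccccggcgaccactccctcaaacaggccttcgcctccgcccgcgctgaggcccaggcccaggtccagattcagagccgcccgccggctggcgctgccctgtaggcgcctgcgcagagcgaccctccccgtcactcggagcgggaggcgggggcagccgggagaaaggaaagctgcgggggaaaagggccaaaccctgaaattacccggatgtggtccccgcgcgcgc
AGR2, a protein disulfide isomerase of mucus-secreting cells, chr7:16805000-16805249, - strand: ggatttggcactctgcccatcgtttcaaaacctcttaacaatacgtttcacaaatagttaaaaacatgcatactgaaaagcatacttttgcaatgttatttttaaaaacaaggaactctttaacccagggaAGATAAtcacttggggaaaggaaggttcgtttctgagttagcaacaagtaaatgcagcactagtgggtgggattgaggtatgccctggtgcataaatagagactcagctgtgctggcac
TSPAN8, a cell surface tetraspanin, chr12:71158000-71158249, - strand: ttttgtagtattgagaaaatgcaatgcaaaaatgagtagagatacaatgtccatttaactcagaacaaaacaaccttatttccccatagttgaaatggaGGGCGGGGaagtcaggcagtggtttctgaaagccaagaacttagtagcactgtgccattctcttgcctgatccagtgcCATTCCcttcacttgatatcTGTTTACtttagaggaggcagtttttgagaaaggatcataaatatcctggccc
ACSL5, a long-chain fatty acid activating enzyme, chr10:112375018-112375267, + strand: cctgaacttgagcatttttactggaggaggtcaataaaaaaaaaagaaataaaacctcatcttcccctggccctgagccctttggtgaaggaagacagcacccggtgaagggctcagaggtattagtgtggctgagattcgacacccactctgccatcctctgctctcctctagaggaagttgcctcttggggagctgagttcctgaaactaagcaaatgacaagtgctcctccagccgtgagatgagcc
The DDR2 promoter holds TATAAA on the reverse strand (bases 111 to 116), CAVIN2 holds GGAATG (bases 235 to 240), SMAD4 holds CCAAT (bases 17 to 21) and AGR2 holds AGATAA (bases 132 to 137). TSPAN8 holds GGGCGGGG (bases 100 to 107), GGAATG on the reverse strand (bases 178 to 183) and TGTTTAC (bases 198 to 204), and ACSL5 holds none of the motifs searched. G and C made up 68.4% of the SMAD4 bases and 40.0 to 50.0% of the others. The median over promoters of genes called higher in MiaPaCa2 with 0 bp in CFPAC1 was 67.8% (n = 284). For genes called lower with 0 bp in MiaPaCa2 it was 58.4% (n = 645). All but the SMAD4 promoter lay below both medians.

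Covered length was higher in MiaPaCa2 at 4500 of 15513 genes (29.0%) and lower at 3080 (19.9%), 48.9% in all. Both MiaPaCa2 libraries lay above both CFPAC1 libraries at 6610 genes (42.6%) and below them at 4726 (30.5%). The median difference over all tested genes was 0.14, so a median of about that size stands for no shift against the genome. At 605 of the higher genes CFPAC1 had 0 bp in both libraries, and at 1322 of the lower genes MiaPaCa2 had 0 bp in both. Most genes were marked in both lines: 11776 were covered in all 4 libraries. Windows centred on listed gene starts gave 28.2% higher and 19.3% lower among 12153 genes. Of the higher genes with such a window, 3104 of 3530 (87.9%) were called the same way there and 44 the opposite way, and of the lower genes 2012 of 2280 (88.2%) the same way and 48 the opposite way. Among the genes named here, the calls of ACTB, AXL, CLDN4, CXCL1, FASN, FN1, HLA-DRA, ITGA5, JAG1, KLF4, KRT5, LAMA3, LGALS3BP, ME2, METTL27, MUC5B, OGDH, PKM, PKP3, SLC2A3, SLC7A11, SNAP25, TEAD1, TGFBR1, THBS3 and TWIST2 ended when 1 or another library was left out, with adjusted p-values of limma from 0.0505 to 0.359. Over all alternatives, 143 of the 194 called genes named here were called the same way in each alternative that tested them.

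The 12 genes with the largest differences in each direction had no coverage in their window in the other line. In MiaPaCa2 they included CAVIN2, with 9855 and 10000 bp against 0 bp in both CFPAC1 libraries (adjusted p = 1.31e-06), and WT1, a zinc finger transcription factor of mesothelium and kidney, with 8922 and 7140 bp against 0 bp in both (adjusted p = 6.59e-08). The WT1 window is at the other gene end, and the window at its start had 7698 and 5766 bp against 0 bp in both (adjusted p = 7.68e-08). KANK4, an adaptor protein of the actin cytoskeleton, had 8555 and 8721 bp against 0 bp in both at its other end, and 5320 and 5456 bp against 0 bp in both at its start (adjusted p = 3.74e-08 and 7.43e-07). PGBD3 had 7910 and 7956 bp against 0 bp in both (adjusted p = 4.01e-08). The other 8, ALDH8A1, FEZ2, BEGAIN, ADTRP, S100Z, EPS15L1, CFAP299 and PPP1R14A, had 6662 to 10000 bp in MiaPaCa2 and 0 bp in both CFPAC1 libraries in windows at the other gene end. Their start windows gave smaller differences, and those of 6 of them held peaks in CFPAC1: BEGAIN had 9405 and 9137 bp at its start in MiaPaCa2, against 2430 and 2396 bp in CFPAC1 (1.78 ± 0.27, adjusted p = 4.53e-04). FEZ2 had 4351 and 4470 bp at its start, set against 2134 and 1759 bp (1.05 ± 0.15, adjusted p = 2.54e-04). EPS15L1 had 3710 and 3058 bp there, while CFPAC1 had 1190 and 1308 bp (1.18 ± 0.21, adjusted p = 0.0011). ADTRP, S100Z and CFAP299 had 0 to 470 bp in CFPAC1 at their starts and 2550 to 6241 bp in MiaPaCa2. PPP1R14A had 4770 and 4661 bp at its start, against 0 bp in both (adjusted p = 1.98e-05). ALDH8A1 had 1306 and 0 bp there, against 0 bp in both, and did not pass (adjusted p = 0.113).

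In the other direction, ADGRF1, an adhesion G protein-coupled receptor, had 0 bp in both MiaPaCa2 libraries, against 10000 and 9906 bp in CFPAC1 (adjusted p = 8.23e-09). SOX2, a transcription factor of stem cells and foregut, had 0 bp in both, against 9380 and 9329 bp (adjusted p = 8.23e-09), and ALCAM, a cell adhesion molecule, 0 bp in both, against 8836 and 9628 bp (adjusted p = 8.23e-09). MACC1, a gene associated with metastasis of colon cancer, had 0 bp in both, against 9279 and 9147 bp (adjusted p = 8.23e-09). PADI1, B4GALT4, LIPH, TMEM156, MAL2, LOC124909439, FUT8 and ANKRD1 completed the 12, each with 0 bp in both MiaPaCa2 libraries and 8443 to 9874 bp in CFPAC1. For 3 of these the window is at the other gene end. FUT8, which adds core fucose to N-glycans, had 2579 and 2651 bp at its start in MiaPaCa2, against 7942 and 8057 bp in CFPAC1 (-1.41 ± 0.08, adjusted p = 4.01e-07), and B4GALT4, a galactosyltransferase, 2302 and 2189 bp there, against 5816 and 5398 bp (-1.12 ± 0.11, adjusted p = 2.96e-05). LOC124909439 had 1268 and 1495 bp there, against 1016 and 1131 bp, and did not pass (0.29 ± 0.16, adjusted p = 0.152).

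Of 14 epithelial transcription factors tested, 1 was higher in MiaPaCa2 and 5 were lower (7.14% and 35.7%, against 29.0% and 19.9% of all genes; median difference -0.51, against 0.14 over all genes). GRHL2, a grainyhead-like activator of junction genes, had 0 bp in both MiaPaCa2 libraries, against 7889 and 7760 bp in CFPAC1 (adjusted p = 6.19e-04), and GRHL3 0 bp in both, against 3299 and 4773 bp (adjusted p = 4.05e-05). ESRP1, an epithelial splicing regulator, had 0 bp in both, against 4800 and 4624 bp (adjusted p = 6.71e-04). KLF5, a Krüppel-like factor of gut and pancreatic epithelium, had 200 and 248 bp at its start in MiaPaCa2, against 8369 and 8721 bp in CFPAC1 (-3.61 ± 0.09, adjusted p = 2.56e-09), and at its other end, the window of the test, 0 bp in both against 8379 and 8111 bp. KLF4 differed less, with 3546 and 4242 bp against 6109 and 6651 bp (-0.59 ± 0.21, adjusted p = 0.0385).

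TP63 was the higher member. It encodes p63, the master regulator of basal and squamous epithelium, and its window at the other gene end had 7012 and 7033 bp in MiaPaCa2, against 0 bp in both CFPAC1 libraries (adjusted p = 5.81e-08). The window at its start had 9911 and 9863 bp in MiaPaCa2, against 0 and 269 bp in CFPAC1 (4.10 ± 0.21, adjusted p = 2.28e-07). Of all genes TP63 also had the most distal loci held by MiaPaCa2 only, 37 of 67 within 50 kb, and none held by CFPAC1 only. Of the basal keratins, which p63 is known to activate, KRT5 and KRT14 were lower in MiaPaCa2. KRT5 had 0 bp in both MiaPaCa2 libraries, against 1883 and 1585 bp in CFPAC1 (adjusted p = 0.0148), and KRT14 had 291 and 0 bp, against 1216 and 1186 bp (-1.38 ± 0.25, adjusted p = 0.00155). The KRT5 call is among those that ended when a library was left out. Values of KRT6A, KRT15 and KRT17, also in the keratin list, are not given here, and 7 of 13 keratins tested did not pass. EHF, an ETS factor of epithelium, had 8143 and 4745 bp in MiaPaCa2, against 6309 and 6237 bp in CFPAC1 (0.05 ± 0.18, adjusted p = 0.844), and ELF3, its relative, 8236 and 4422 bp against 8882 and 8503 bp (-0.43 ± 0.23, adjusted p = 0.154). The MiaPaCa2 libraries differed from each other by more than the lines did at EHF, and ELF3 did not pass the test.

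**Figure D1:**
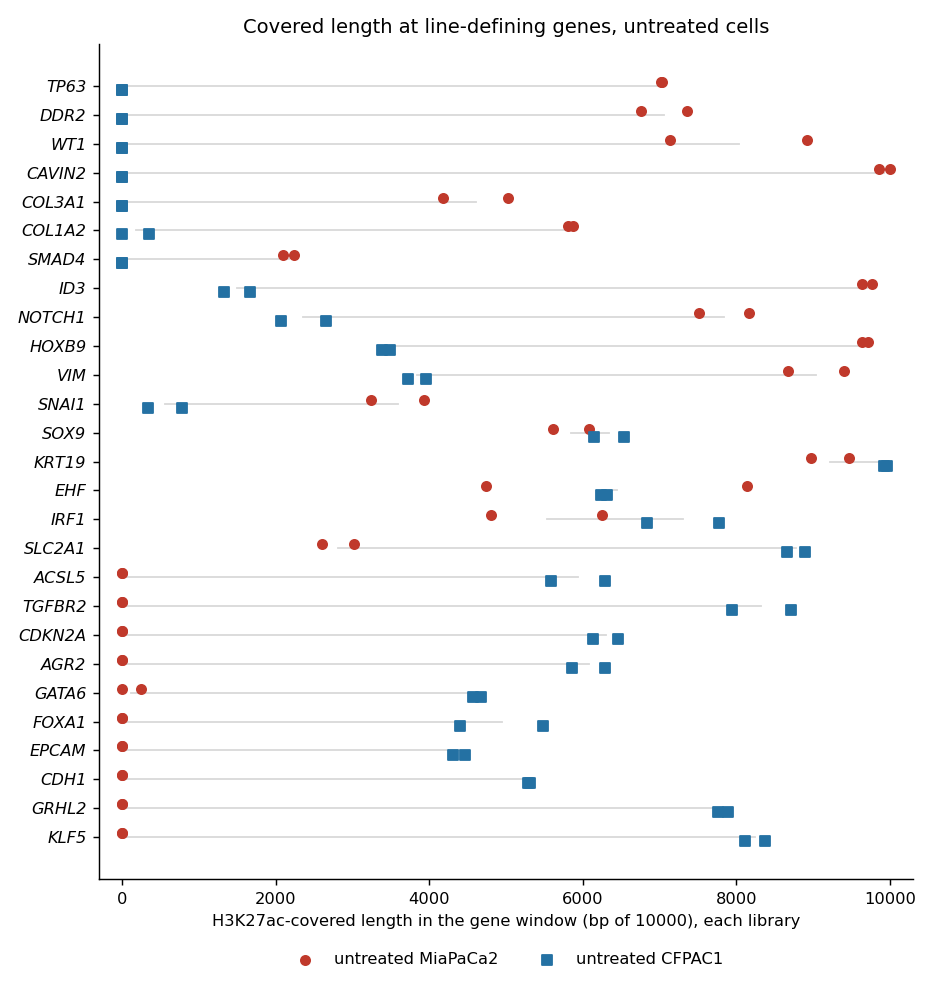
Covered length within 5 kb of a gene end for 27 genes (x axis, bp of 10000), with each library as a point; red circles are untreated MiaPaCa2 and blue squares untreated CFPAC1, and the grey line joins the means. Genes from TP63 to SMAD4 were at or near 0 bp in CFPAC1 and genes from ACSL5 to KLF5 at or near 0 bp in MiaPaCa2, while SOX9, KRT19, EHF and IRF1 were covered in all 4 libraries.

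Epithelial adhesion genes were lower as a group. Of 29 tested, 20 were lower in MiaPaCa2 (68.97%, against 19.9% of all genes) and 2 were higher (6.90%, against 29.0%). CDH1, which encodes the adherens junction protein E-cadherin, had 0 bp in both MiaPaCa2 libraries, against 5311 and 5286 bp in CFPAC1 (adjusted p = 2.03e-08). EPCAM, an epithelial adhesion molecule, had 0 bp in both, against 4303 and 4463 bp (adjusted p = 5.81e-08). SPINT1 and ST14, a protease inhibitor and the membrane protease it controls, had 0 bp in both, against 5186 and 5100 bp and against 3779 and 4144 bp (adjusted p = 2.05e-08 and 6.89e-05). Of the desmosome genes DSP, DSG2 and PKP2, DSP had 1276 and 1608 bp against 2828 and 3469 bp (-0.85 ± 0.17, adjusted p = 0.00235), DSG2 857 and 767 bp, set against 3415 and 3672 bp (-1.56 ± 0.16, adjusted p = 3.96e-05) and PKP2 443 and 645 bp against 6263 and 7564 bp (-2.77 ± 0.17, adjusted p = 1.13e-06). In none of these genes did the libraries of the lines overlap. The higher members were CLDN4, a tight junction claudin, with 9104 and 8990 bp, set against 7566 and 7130 bp (0.34 ± 0.08, adjusted p = 0.00634), and PKP3, a plakophilin, with 6346 and 6481 bp against 4730 and 3552 bp (0.65 ± 0.17, adjusted p = 0.0122).

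Of 13 keratins tested, 6 were lower in MiaPaCa2 and 0 higher (46.2% lower, against 19.9% of all genes). KRT7, a keratin of ducts, had 200 and 1575 bp in MiaPaCa2, against 6693 and 7648 bp in CFPAC1 (-2.61 ± 0.60, adjusted p = 0.00541), and KRT23 0 bp in both, against 5014 and 5142 bp (adjusted p = 1.70e-07). The simple-epithelium keratins were broadly covered in every library: KRT19 had 9470 and 8977 bp, set against 9967 and 9920 bp (-0.04 ± 0.09, adjusted p = 0.702), and KRT18 had 9669 and 9192 bp against 8772 and 8996 bp (0.14 ± 0.10, adjusted p = 0.261). KRT19 and KRT18 did not pass the test, and at KRT7 both MiaPaCa2 libraries lay below both CFPAC1 libraries.

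Endodermal transcription factors, which specify foregut, liver and pancreas, were lower at 11 of 22 tested and higher at 2 (50.0% and 9.09%, against 19.9% and 29.0% of all genes). The pioneer factors FOXA1 and FOXA2 had 0 bp in both MiaPaCa2 libraries, against 5487 and 4403 bp and against 3650 and 2999 bp in CFPAC1 (adjusted p = 1.06e-05 and 1.07e-06). GATA6, a marker of the classical subtype of pancreatic cancer, had 242 and 0 bp, against 4568 and 4673 bp (-3.01 ± 0.16, adjusted p = 4.62e-07). PDX1, the pancreatic master regulator, had 371 and 620 bp, against 5017 and 4920 bp (-2.41 ± 0.13, adjusted p = 5.41e-07), while HNF4G had 282 and 595 bp, against 4318 and 4353 bp (-2.33 ± 0.20, adjusted p = 1.10e-05). SOX9, a factor of ductal cells, did not pass the test, with 6076 and 5610 bp against 6536 and 6148 bp (-0.05 ± 0.10, adjusted p = 0.713). The higher members were CDX1, with 858 and 1330 bp against 0 bp in both CFPAC1 libraries (adjusted p = 0.00119), and GATA5, with 2543 and 1112 bp against 0 bp in both (adjusted p = 9.74e-05).

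Mucins and markers of the classical subtype were lower at 20 of 28 tested (71.4%, against 19.9% of all genes) and higher at 3 (10.7%, against 29.0%). MiaPaCa2 had 0 bp in both libraries at 24 of the 33 list members and CFPAC1 at 7, of which 5 were at 0 bp in all 4. AGR2 had 0 bp in both MiaPaCa2 libraries, against 5865 and 6288 bp in CFPAC1 (adjusted p = 1.25e-07), and TSPAN8 0 bp in both, against 6840 and 7799 bp (adjusted p = 2.03e-08). The trefoil peptides TFF1 and TFF2, secreted with mucus, had 0 bp in both, against 4681 and 4873 bp and against 3342 and 2795 bp (adjusted p = 4.57e-06 and 5.74e-07). CEACAM6, a surface glycoprotein, had 0 bp in both at its start, against 3845 and 3652 bp (adjusted p = 1.84e-06). Among mucins MUC4 had 0 bp in both, against 7661 and 4842 bp (adjusted p = 2.77e-07), and MUC5AC, the gastric gel-forming mucin, 986 and 1238 bp against 3580 and 3802 bp (-1.32 ± 0.25, adjusted p = 0.00183). MUC5B was higher, with 2554 and 2318 bp against 1569 and 1482 bp (0.59 ± 0.18, adjusted p = 0.0222). MUC1, in a window shared with THBS3, had 5881 and 5383 bp against 4427 and 3592 bp and did not pass (0.51 ± 0.20, adjusted p = 0.0582). TSPAN1 was higher in a window shared with PIK3R3, with 7833 and 6530 bp against 2488 and 2297 bp (1.46 ± 0.36, adjusted p = 0.00755), so the gene cannot be told apart from its neighbour.

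Enzymes that build O-glycans on mucins were lower at 13 of 21 and higher at 2 (61.9% and 9.52%, against 19.9% and 29.0% of all genes). GALNT5, which starts O-glycosylation, had 0 bp in both MiaPaCa2 libraries, against 6442 and 6962 bp in CFPAC1 (adjusted p = 8.65e-09), and GCNT3, the core-branching enzyme of mucins, 0 bp in both, against 5160 and 4869 bp (adjusted p = 3.12e-07). GFPT1 and GFPT2 catalyse the first step of the hexosamine pathway that supplies the sugar, and they differed in opposite directions. GFPT1 had 1491 and 1783 bp in MiaPaCa2, against 3605 and 4223 bp in CFPAC1 (-0.99 ± 0.21, adjusted p = 0.00346), and GFPT2 560 and 1566 bp against 0 bp in both (adjusted p = 0.00492). Among genes of ductal ion and water transport 6 of 13 were lower and 3 higher (46.2% and 23.1%, against 19.9% and 29.0% of all genes). AQP5, a water channel whose window overlaps AQP2, had 923 and 0 bp, set against 7490 and 6241 bp (-3.06 ± 0.36, adjusted p = 1.03e-04), and KCNN4, a calcium-activated potassium channel, 9856 and 9454 bp against 6772 and 6739 bp (0.54 ± 0.10, adjusted p = 0.00146). CFTR, the chloride channel of ducts, was lower only at its other end (0 bp in both, against 785 and 2072 bp, adjusted p = 0.00205). At its start it had 0 bp in both MiaPaCa2 libraries, against 0 and 247 bp in CFPAC1 (adjusted p = 0.525).

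**Figure D2:**
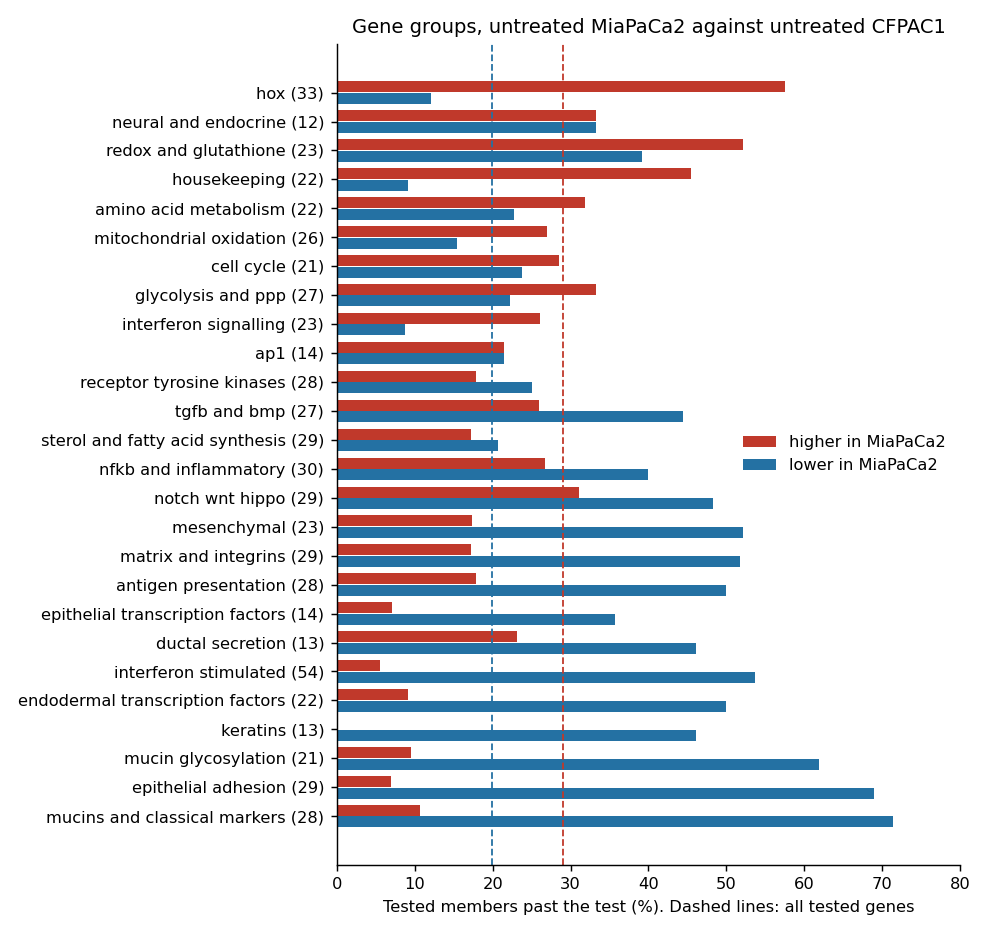
Share of the tested members of 26 gene groups (number tested in brackets) that were higher in untreated MiaPaCa2 (red) or lower (blue), ordered by the median difference; the dashed lines are the shares over all tested genes, 29.0% higher and 19.9% lower. Mucins, epithelial adhesion and mucin glycosylation had the longest blue bars, and HOX genes the longest red bar.

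Of 23 mesenchymal genes tested, 4 were higher in MiaPaCa2 and 12 lower (17.4% and 52.2%, against 29.0% and 19.9% of all genes). VIM, the mesenchymal intermediate filament, had 8666 and 9406 bp in MiaPaCa2, against 3953 and 3729 bp in CFPAC1 (1.19 ± 0.09, adjusted p = 3.51e-06), and SNAI1, a repressor of CDH1, 3931 and 3246 bp against 339 and 782 bp (2.03 ± 0.25, adjusted p = 1.38e-04). SNAI2, its paralog, went the other way, with 395 and 447 bp against 3497 and 4676 bp (-2.25 ± 0.15, adjusted p = 1.71e-06). CDH2, which encodes N-cadherin, had 0 bp in both MiaPaCa2 libraries, against 1526 and 4044 bp in CFPAC1 (adjusted p = 1.27e-04), and FN1, fibronectin, 0 bp in both, against 711 and 981 bp (adjusted p = 0.0193). AXL, a receptor kinase linked to mesenchymal tumour cells, had 4610 and 4511 bp against 6002 and 6104 bp (-0.31 ± 0.08, adjusted p = 0.0123). ZEB1, which represses epithelial genes, was covered in both lines, with 3231 and 3850 bp against 4434 and 5683 bp (-0.40 ± 0.15, adjusted p = 0.0524), ZEB2 was at 0 bp in all 4 libraries, and TWIST1 had 0 and 406 bp against 0 bp in both (adjusted p = 0.205). Of SNAI1, SNAI2, ZEB1, ZEB2, TWIST1 and TWIST2, SNAI1 was the only one called higher.

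Matrix and integrin genes were lower at 15 of 29 and higher at 5 (51.7% and 17.2%, against 19.9% and 29.0% of all genes). COL3A1, a fibrillar collagen gene, had 4182 and 5032 bp in MiaPaCa2, against 0 bp in both CFPAC1 libraries (adjusted p = 3.79e-07), and COL1A2 5875 and 5808 bp against 0 and 354 bp (3.34 ± 0.33, adjusted p = 2.81e-05). COL1A1, whose product pairs with that of COL1A2 in type I collagen, had 0 bp in both, against 1146 and 2318 bp (adjusted p = 1.19e-04). LAMB3 and LAMA3, laminin genes of epithelial basement membrane, were lower. LAMB3 had 0 and 693 bp, set against 9923 and 10000 bp (-3.70 ± 0.38, adjusted p = 3.70e-05), and LAMA3 at its start 0 bp in both against 8462 and 7660 bp (adjusted p = 3.44e-09). Among collagen receptors, the integrins ITGA1 and ITGA2 had 0 bp in both, against 5750 and 6261 bp and against 5359 and 6992 bp (adjusted p = 3.60e-07 and 1.41e-07), while DDR2 had 7356 and 6761 bp against 0 bp in both (adjusted p = 6.18e-08). ITGA5, the fibronectin receptor subunit, was slightly higher, with 2250 and 2223 bp, set against 1780 and 730 bp (0.77 ± 0.28, adjusted p = 0.0474), and ITGB1, the shared beta subunit, had 9542 and 9585 bp against 9418 and 9433 bp and did not pass the test (0.08 ± 0.09, adjusted p = 0.483).

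HOX genes, which give cells their position along the body axis, had the largest share of higher members of the lists in windows at gene ends, but not in windows at listed starts. Of 33 tested, 19 were higher in MiaPaCa2 (57.58%, against 29.0% of all genes) and 4 lower (12.12%, against 19.9%). Windows of neighbouring HOX genes overlap, so the members are not independent. With windows at listed starts, 6 of 18 HOX genes were higher and 3 lower, against 28.2% and 19.3% of all genes there, while redox genes were higher at 8 of 15. HOXB9 had 9720 and 9635 bp in MiaPaCa2, against 3492 and 3382 bp in CFPAC1 (1.43 ± 0.08, adjusted p = 5.61e-07), HOXB8 9702 and 9663 bp, set against 4059 and 3657 bp (1.29 ± 0.10, adjusted p = 5.14e-06) and HOXB2 10000 and 9907 bp against 3657 and 3859 bp (1.36 ± 0.11, adjusted p = 6.88e-06). In the C cluster HOXC5 had 4821 and 3637 bp against 0 bp in both CFPAC1 libraries (adjusted p = 4.76e-07). In the A cluster the direction changed along the genes: HOXA4 had 9205 and 8675 bp against 2189 and 2940 bp (1.69 ± 0.19, adjusted p = 7.16e-05), HOXA6 3050 and 1035 bp, set against 5902 and 6024 bp (-1.41 ± 0.28, adjusted p = 0.00254), and HOXA10 0 bp in both against 2839 and 2709 bp (adjusted p = 3.46e-07). HOXA3 was called higher at its other end only, and its start had 9527 and 9044 bp against 9472 and 9160 bp (0.03 ± 0.10, adjusted p = 0.816). Among 12 tested neural and endocrine genes 4 were higher and 4 lower (33.3% each, against 29.0% and 19.9% of all genes). SNAP25, a synaptic vesicle fusion protein, had 9487 and 9297 bp against 286 and 3933 bp (2.46 ± 0.82, adjusted p = 0.0309), with CFPAC1 libraries that differed widely, and ISL1, a factor of islet and motor neuron development, 0 bp in both against 8505 and 8644 bp (adjusted p = 8.63e-09).

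TGF-β and BMP genes differed in both directions. Ligands of this family bind paired type I and type II receptors, which phosphorylate SMAD2 and SMAD3, and these act together with SMAD4. Of 27 tested, 7 were higher in MiaPaCa2 and 12 lower (25.9% and 44.4%, against 29.0% and 19.9% of all genes). Among ligands, TGFB2 had 716 and 634 bp in MiaPaCa2, against 7834 and 9428 bp in CFPAC1 (-2.89 ± 0.13, adjusted p = 1.66e-07), BMP4 0 bp in both against 5432 and 4581 bp (adjusted p = 8.01e-08), and BMP7 1595 and 1679 bp against 0 bp in both (adjusted p = 6.51e-06). The type II receptor TGFBR2 had 0 bp in both MiaPaCa2 libraries, against 7940 and 8714 bp in CFPAC1 (adjusted p = 1.07e-08), and the type I receptor TGFBR1 1237 and 1153 bp against 335 and 735 bp (0.80 ± 0.28, adjusted p = 0.0373). SMAD4 had 2241 and 2095 bp in MiaPaCa2, against 0 bp in both CFPAC1 libraries (adjusted p = 2.47e-06). SMAD4 and its neighbour ELAC1 were also at 0 bp in the other 6 CFPAC1 libraries, treated and clonal, while ME2 and MEX3C on either side of the pair had 1608 and 1717 bp and 2491 and 2853 bp in untreated CFPAC1. Peak lists do not give copy number, which was not tested. The target and feedback genes differed by member: ID3, a BMP target, had 9635 and 9766 bp, set against 1333 and 1665 bp (2.42 ± 0.29, adjusted p = 1.20e-04), and SMAD7, an inhibitor induced by TGF-β, 847 and 1609 bp against 6408 and 6426 bp (-1.98 ± 0.21, adjusted p = 5.66e-05).

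Receptor tyrosine kinases were higher at 5 of 28 and lower at 7 (17.86% and 25%, against 29.0% and 19.9% of all genes). MET, the hepatocyte growth factor receptor, had 1009 and 1258 bp in MiaPaCa2, against 5698 and 6291 bp in CFPAC1 (-1.93 ± 0.13, adjusted p = 1.71e-06), FGFR1 0 bp in both against 4114 and 4315 bp (adjusted p = 5.41e-08), and INSR, the insulin receptor, 1446 and 1060 bp against 0 and 232 bp (1.59 ± 0.22, adjusted p = 2.46e-04). EGFR was covered in both lines, with 4441 and 4006 bp against 3861 and 3791 bp (0.18 ± 0.13, adjusted p = 0.262). Notch, Wnt and Hippo genes were higher at 9 of 29 and lower at 14 (31.0% and 48.3%, against 29.0% and 19.9% of all genes). The receptor NOTCH1 and its ligand JAG2 were higher, with 8159 and 7518 bp, set against 2653 and 2068 bp (1.61 ± 0.20, adjusted p = 1.41e-04) and 6417 and 4783 bp against 200 and 0 bp (3.41 ± 0.37, adjusted p = 6.01e-05), while the ligand JAG1 and the target HEY1 were lower, JAG1 with 5507 and 3330 bp against 7005 and 8235 bp (-0.70 ± 0.17, adjusted p = 0.00752). In the Wnt pathway RNF43, a brake on Wnt receptors that is often mutated in pancreatic tumours, had 0 bp in both MiaPaCa2 libraries, against 4944 and 5239 bp (adjusted p = 1.87e-04), and LGR4, the receptor that relieves it, 0 bp in both against 4896 and 4589 bp (adjusted p = 9.72e-07). TEAD factors carry the Hippo output: TEAD2 had 5231 and 4436 bp, set against 200 and 0 bp (3.23 ± 0.39, adjusted p = 1.10e-04) and TEAD1 2293 and 3211 bp against 4324 and 4084 bp (-0.49 ± 0.14, adjusted p = 0.0148). TCF7L1 had opposite directions at its ends, lower at the other end and higher at its start, where it had 1342 and 1436 bp against 0 bp in both (adjusted p = 3.31e-04).

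Cell-cycle genes were higher at 6 of 21 and lower at 5, near the shares over all genes. CDKN2A and CDKN2B, which encode the CDK inhibitors p16 and p15, had 0 bp in both MiaPaCa2 libraries, against 6138 and 6461 bp and against 2766 and 3492 bp in CFPAC1 (adjusted p = 8.65e-09 and 2.78e-05). CDK6, their target kinase, had 765 and 0 bp, set against 6282 and 6811 bp (-3.09 ± 0.32, adjusted p = 3.94e-05), and CCNE1, cyclin E1, 2112 and 1613 bp against 246 and 588 bp (1.44 ± 0.27, adjusted p = 0.00169). MYC, the growth-driving transcription factor, had 9582 and 9608 bp against 6480 and 6629 bp (0.58 ± 0.09, adjusted p = 4.44e-04). E2F1 was higher only at its other end, and its start window, with 2299 and 1549 bp against 1676 and 1710 bp, did not pass (0.16 ± 0.22, adjusted p = 0.564).

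Glycolysis and pentose phosphate genes were higher at 9 of 27 and lower at 6 (33.3% and 22.2%, near the 29.0% and 19.9% of all genes). SLC2A1, the common glucose transporter, had 2599 and 3024 bp in MiaPaCa2, against 8889 and 8665 bp in CFPAC1 (-1.43 ± 0.09, adjusted p = 1.76e-06), and SLC2A3, the high-affinity one, 424 and 811 bp against 0 bp in both (adjusted p = 0.00706). LDHB, the heart-type lactate dehydrogenase subunit, had 0 bp in both, against 2978 and 3170 bp (adjusted p = 3.79e-07), while LDHA, the muscle type, had 5336 and 4808 bp against 4483 and 4692 bp (0.19 ± 0.13, adjusted p = 0.241). PKM, pyruvate kinase, had 9724 and 9514 bp against 8441 and 8158 bp (0.26 ± 0.09, adjusted p = 0.0349). Among lipid synthesis genes 5 of 29 were higher and 6 lower (17.2% and 20.7%, against 29.0% and 19.9% of all genes). FASN, fatty acid synthase, in a window shared with CCDC57, had 8337 and 7294 bp against 5795 and 4476 bp (0.63 ± 0.18, adjusted p = 0.0155), SCD, the desaturase, 9893 and 9742 bp, set against 7115 and 7349 bp (0.48 ± 0.07, adjusted p = 5.00e-04), and SREBF1, their transcriptional regulator, 9401 and 8829 bp against 6774 and 6340 bp (0.51 ± 0.08, adjusted p = 7.87e-04). HMGCS1, an enzyme of sterol synthesis, was lower, with 2163 and 2482 bp against 6264 and 6115 bp (-1.19 ± 0.26, adjusted p = 0.00415).

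ACSL5 was covered in 1 line only: it had 0 bp in both MiaPaCa2 libraries, against 6292 and 5589 bp in CFPAC1 (adjusted p = 2.72e-08). Its locus at the gene end, 6714 bp wide, ranked first of the CFPAC1-only loci at gene ends by the lower of the authors' deposited fold enrichments, 37.9 and 32.9 in its libraries, and 12 of the 20 distal loci within 50 kb were held by CFPAC1 only. Redox and glutathione genes were higher at 12 of 23 and lower at 9 (52.2% and 39.1%, against 29.0% and 19.9% of all genes). In all 21 of 23 differed, against 48.9% of all genes. TXNRD1, thioredoxin reductase, had 6073 and 6183 bp in MiaPaCa2, against 2649 and 2739 bp in CFPAC1 (1.11 ± 0.13, adjusted p = 9.74e-05), and NQO1, a target of NRF2, 7467 and 7333 bp against 5310 and 5063 bp (0.53 ± 0.10, adjusted p = 0.00195). GSTP1, a glutathione transferase, had 1921 and 1952 bp, set against 4979 and 4842 bp (-1.09 ± 0.13, adjusted p = 8.49e-05), and GPX2, the gut-type glutathione peroxidase, whose window overlaps RAB15, 0 bp in both against 6490 and 3855 bp (adjusted p = 1.07e-05). SLC7A11, the cystine importer, had 1874 and 4698 bp against 6739 and 6920 bp (-1.0 ± 0.29, adjusted p = 0.0175).

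Mitochondrial oxidation genes were higher at 7 of 26 and lower at 4 (26.9% and 15.4%, near the 29.0% and 19.9% of all genes). ACADVL, the very-long-chain acyl-CoA dehydrogenase, shares a window with DLG4 and had 6999 and 6587 bp in MiaPaCa2, against 2167 and 1902 bp in CFPAC1 (1.59 ± 0.20, adjusted p = 1.46e-04). CPT1A, which admits fatty acids to mitochondria, had 2345 and 1832 bp against 4437 and 4310 bp (-0.86 ± 0.12, adjusted p = 3.44e-04). Amino acid genes were higher at 7 of 22 and lower at 5 (31.8% and 22.7%, also near the shares over all genes). PSAT1, of serine synthesis, had 3586 and 3206 bp against 1337 and 1909 bp (0.95 ± 0.21, adjusted p = 0.00453), GLUL, glutamine synthetase, 0 and 586 bp, set against 3271 and 3147 bp (-2.27 ± 0.37, adjusted p = 8.05e-04), and KYNU, kynureninase of tryptophan breakdown, 0 bp in both against 8225 and 8890 bp (adjusted p = 8.23e-09). BCAT1, the cytosolic branched-chain transaminase, had 386 and 705 bp against 5644 and 6316 bp (-2.59 ± 0.16, adjusted p = 1.20e-06). GOT1 was called at its other end, in a window shared with CNNM1, and its start, with 2486 and 2561 bp against 2270 and 2245 bp, did not pass the test (0.17 ± 0.12, adjusted p = 0.265).

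Of 54 interferon-stimulated genes tested in cells without added interferon, 29 were lower in MiaPaCa2 (53.7%, against 19.9% of all genes) and 3 higher (5.56%, against 29.0%), with a median difference of -0.64, against 0.14 over all genes, and MiaPaCa2 had 0 bp in both libraries at 16 members. OAS1, a sensor of double-stranded RNA, had 0 bp in both MiaPaCa2 libraries, against 5251 and 3656 bp in CFPAC1 (adjusted p = 3.20e-05), XAF1, a pro-apoptotic interferon target, 0 bp in both against 3759 and 4074 bp (adjusted p = 9.88e-08) and SAMD9, an antiviral factor, 0 bp in both against 4905 and 5347 bp (adjusted p = 2.19e-07). APOL1 had 621 and 0 bp, set against 7664 and 6946 bp (-3.32 ± 0.31, adjusted p = 2.32e-05) and PLSCR1 1042 and 1201 bp against 3873 and 3532 bp (-1.32 ± 0.18, adjusted p = 2.75e-04). IFIT1 and IFIT2, which bind viral RNA, were the other way round, with 4345 and 4794 bp, set against 1655 and 2227 bp (1.12 ± 0.21, adjusted p = 0.00184) and 4815 and 5451 bp against 2783 and 3177 bp (0.75 ± 0.13, adjusted p = 9.01e-04). The third higher member was LGALS3BP, with 6644 and 6104 bp against 4671 and 4072 bp (0.56 ± 0.17, adjusted p = 0.0205).

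Of 23 genes of interferon signalling tested, 6 were higher and 2 lower (26.1% and 8.70%, against 29.0% and 19.9% of all genes). The receptor genes IFNAR1 and IFNAR2 had 2158 and 2175 bp, set against 1914 and 2148 bp (0.14 ± 0.12, adjusted p = 0.375) and 1350 and 1404 bp against 1331 and 2430 bp (-0.24 ± 0.20, adjusted p = 0.345). STAT2, which carries the signal to the nucleus, did not pass either, with 2430 and 2335 bp against 2283 and 2102 bp (0.16 ± 0.17, adjusted p = 0.465). IRF1, the factor deleted in 1 group of CFPAC1 clones, was broadly covered in all 4 libraries, with 6254 and 4802 bp in MiaPaCa2, against 7776 and 6831 bp in CFPAC1 (-0.32 ± 0.14, adjusted p = 0.0781). STAT3, which relays cytokine signals, was higher, with 5853 and 6485 bp, set against 2723 and 3074 bp (1.03 ± 0.12, adjusted p = 8.49e-05), and JAK1, a receptor-bound kinase, lower, with 1121 and 1284 bp against 2658 and 2510 bp (-0.80 ± 0.13, adjusted p = 6.73e-04).

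Antigen presentation genes were lower at 14 of 28 and higher at 5 (50.0% and 17.9%, against 19.9% and 29.0% of all genes). Among class II genes, CD74, the invariant chain, had 0 bp in both MiaPaCa2 libraries, against 4598 and 4024 bp in CFPAC1 (adjusted p = 1.80e-07), and HLA-DPA1, HLA-DPB1, HLA-DRA, HLA-DMA and HLA-DMB were lower as well. In class I, HLA-F had 0 bp in both, against 1205 and 1135 bp (adjusted p = 2.78e-05), while B2M, the shared light chain, had 3005 and 3116 bp against 4836 and 3982 bp (-0.40 ± 0.17, adjusted p = 0.0719). Short reads map poorly to the near-identical HLA genes, and how the submitters treated such reads is not given in the sources used here. NF-κB and inflammatory genes were lower at 12 of 30 and higher at 8 (40.0% and 26.7%, against 19.9% and 29.0% of all genes). The cytokine gene IL6 had 0 bp in both, against 3641 and 5879 bp (adjusted p = 8.36e-07), IL18 0 bp in both against 6603 and 8331 bp (adjusted p = 2.71e-05) and PTGS2, cyclooxygenase 2, 0 bp in both against 2744 and 4141 bp (adjusted p = 4.02e-05). The neutrophil chemokines were higher, CXCL8 with 8604 and 8629 bp, set against 3152 and 4953 bp (1.09 ± 0.23, adjusted p = 0.00351) and CXCL1 with 8140 and 7606 bp against 2246 and 3929 bp (1.32 ± 0.43, adjusted p = 0.0277). ICAM1 was called higher at its other end, shared with ICAM4 and ICAM5, whereas its start had 1240 and 968 bp against 1637 and 1695 bp (-0.40 ± 0.16, adjusted p = 0.0598). AP-1 genes were higher at 3 of 14 and lower at 3 (21.4% each, against 29.0% and 19.9% of all genes). FOSL1, a subunit abundant in pancreatic cancer, had 8558 and 8921 bp against 8892 and 9137 bp (0.02 ± 0.08, adjusted p = 0.889).

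Of 22 housekeeping genes tested, 10 were higher in MiaPaCa2 and 2 lower (45.45% and 9.09%, against 29.0% and 19.9% of all genes). Their median difference was 0.32, against 0.14 over all genes. ACTB, beta-actin, had 7760 and 6820 bp in MiaPaCa2, against 5693 and 5718 bp in CFPAC1 (0.38 ± 0.13, adjusted p = 0.0376). Wide peaks held a larger share of the covered length in the MiaPaCa2 libraries (23.6 and 24.9%, against 13.0 and 14.3%), and their part in these differences was not tested. Markers of other cell types were few and mixed, and their counts stand against 29.0% higher and 19.9% lower of all genes. Of the fibroblast markers 1 of 7 tested was higher and 3 lower, with summed covered lengths of 7400 and 8645 bp in MiaPaCa2, against 5328 and 8348 bp in CFPAC1. Endothelial markers were higher at 3 of 6 and lower at 1 (13845 and 14788 bp, against 6160 and 5351 bp), immune markers higher at 3 of 8 and lower at 2 (13969 and 10262 bp, against 11770 and 10082 bp), acinar markers higher at 0 of 6 and lower at 2 (4162 and 889 bp, against 5578 and 8297 bp), and islet markers higher at 3 of 7 and lower at 1 (5880 and 5500 bp, against 1868 and 1794 bp). PTPRC, the pan-leukocyte marker, was at 0 bp in all 4 libraries.

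Peaks of the 4 libraries merged into 159900 loci. MiaPaCa2 alone held 16448 (10.3%), meaning a peak in both of its libraries and none in CFPAC1. CFPAC1 alone held 33499 (20.9%), and 21835 (13.7%) were held by all 4 libraries. The largest class, 88118 loci (55.1%) with a median width of 295 bp, was mixed, with peaks in any other combination of the libraries. At gene ends, within 1 kb, 8.12% of 22513 loci were held by MiaPaCa2 only, 10.6% by CFPAC1 only and 54.1% by all 4. Proximal loci, 1 to 5 kb away, gave 12.4%, 14.8% and 8.87% of 23614. Distal loci, over 5 kb from every gene end, gave 10.3%, 24.3% and 6.65% of 113773. Mixed loci made up 27.3% of gene-end, 63.9% of proximal and 58.8% of distal loci. In the treated libraries 53.9% of the MiaPaCa2-only and 61.3% of the CFPAC1-only loci were held the same way. Distal loci made up 71.0% of the loci of MiaPaCa2 only and 82.4% of those of CFPAC1 only. CFPAC1 had more peaks in both of its libraries, and after trimming the lists to equal length by −log10 q, MiaPaCa2 alone held 13873 loci and CFPAC1 alone 19265. Leaving out 1 library, where a class needs 1 library fewer, moved the counts of the line concerned by more, and leaving out either MiaPaCa2 library turned their order: MiaPaCa2 alone held 36353 loci and CFPAC1 alone 35733 without the first MiaPaCa2 library, and 48136 and 35588 without the second. They were 18265 and 62916 without the first CFPAC1 library, and 18093 and 55818 without the second.

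**Figure D3:**
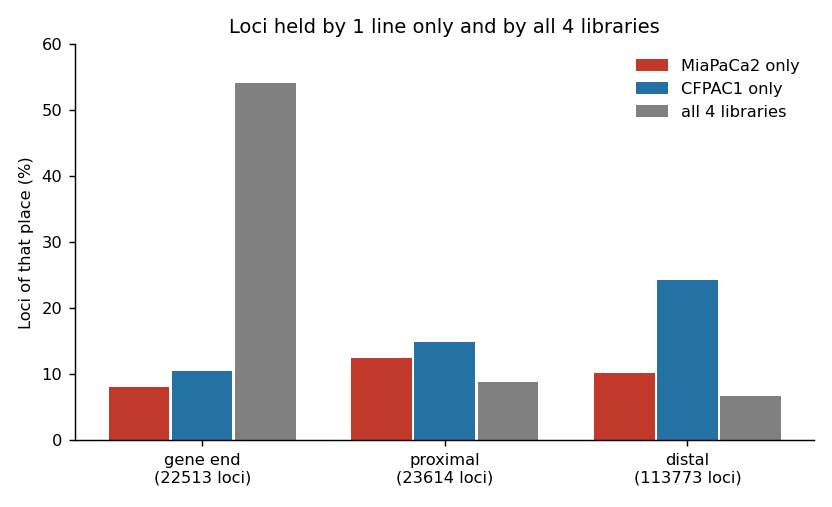
Share of loci (y axis, %) held by untreated MiaPaCa2 only (red), by untreated CFPAC1 only (blue) and by all 4 libraries (grey), for loci within 1 kb of a gene end, between 1 and 5 kb, and over 5 kb away. All 4 libraries held 54.1% of gene-end loci but 6.65% of distal loci, of which CFPAC1 alone held 24.3%. Mixed loci, 58.8% of the distal ones, are not drawn.

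A MiaPaCa2-only distal locus lay within 50 kb of 47.98% of the genes higher in MiaPaCa2 and of 14.74% of the lower genes, against 29.06% of all tested genes. A CFPAC1-only distal locus lay near 31.24% of the higher genes and 71.85% of the lower genes, against 47.64% of all. Beyond TP63, the genes with most MiaPaCa2-only distal loci were LRRC8D, an anion channel subunit, with 33 of 64, DENND5B with 31 of 53 and OGDH, the 2-oxoglutarate dehydrogenase of the citric acid cycle, with 29 of 62. For CFPAC1 they were TGFB2 with 41 of 65, NRP1, a semaphorin and VEGF co-receptor, with 37 of 67, and SH3RF1 with 30 of 65, and none of these 3 had a MiaPaCa2-only locus. CDH1 had 23 of 38 held by CFPAC1 only and MET 18 of 30. By the lower of the authors' deposited fold enrichments in the libraries of the line, the first-ranked MiaPaCa2-only distal locus spanned 12278 bp, 423.21 kb from the nearest protein-coding gene, ACTBL2, with folds of 44.7 and 45.8. The first-ranked CFPAC1-only distal locus spanned 17920 bp, 292.23 kb from LYPLAL1, with folds of 37.3 and 36.9. Those folds describe each library on its own and were not compared between lines.

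Coverage was spread unevenly over chromosomes. Chromosome 19 held 6.17 and 5.0% of the covered bp in MiaPaCa2, against 3.28 and 2.73% in CFPAC1, and 54.8% of its 1188 tested genes were higher in MiaPaCa2 and 8.16% lower. Chromosome 4 held 3.06 and 3.56% against 4.79 and 5.61%, with 8.42% of 606 genes higher and 29.7% lower. Chromosome 9 had 45.9% of 592 genes higher and 14.2% lower. The libraries of the lines did not overlap in the shares of chromosomes 19 and 4. The same held on chromosomes 3, 7, 8, 9, 10, 11, 13, 15, 16, 17, 20 and 21, so it was not particular to chromosomes 19 and 4. The share of peaks within 1 kb of a gene end also differed between the lines, at 23.1 and 23.4% in MiaPaCa2 against 20.9 and 19.2% in CFPAC1. Its part in the chromosome differences was not tested.

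**Figure D4:**
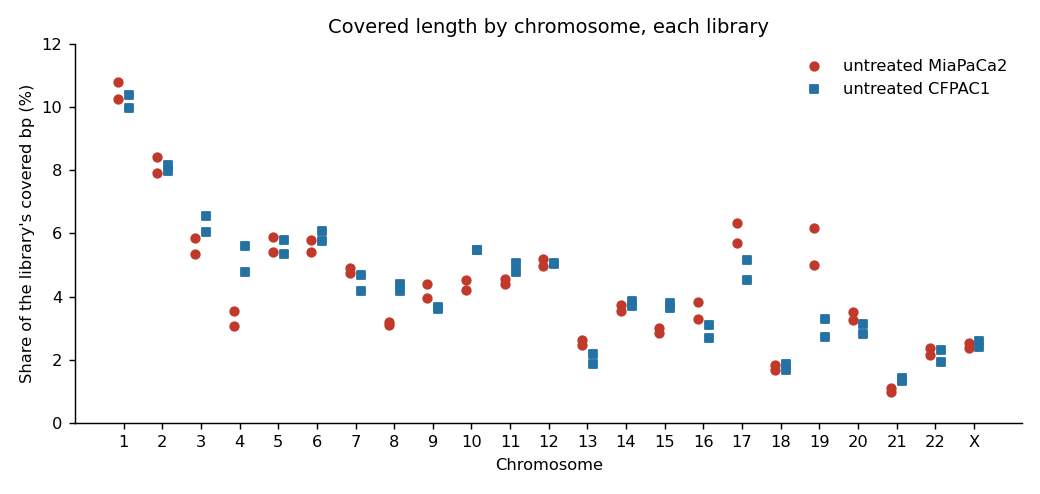
Share of each library's covered bp (y axis, %) on chromosomes 1 to 22 and X; red circles are untreated MiaPaCa2 and blue squares untreated CFPAC1. The MiaPaCa2 libraries lie above CFPAC1 on chromosome 19 (6.17 and 5.0% against 3.28 and 2.73%) and below it on chromosome 4 (3.06 and 3.56% against 4.79 and 5.61%).

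Long stretches without any peak in 1 line, while both libraries of the other held many loci, sat around several of the genes above. The MiaPaCa2 stretch with the most CFPAC1 loci, chr9:19409777-26890883, ran for 7481 kb over 29 protein-coding genes, among them CDKN2A, CDKN2B, MTAP and the type I interferon genes with IFNB1, with no peak in either MiaPaCa2 library and 113 loci shared by both CFPAC1 libraries. Neither treated MiaPaCa2 library had a peak there, and the other CFPAC1 libraries had 137 to 195. A stretch of 4017 kb around ALCAM (chr3:101851340-105868216) had 96 CFPAC1 loci, one of 1767 kb around TGFBR2 (chr3:29764132-31530855) had 72, one of 1802 kb around SOX2 had 68 and one of 849.9 kb around HMGA2 also 68. Stretches of CFPAC1 without peaks were fewer, 25 against 607 for MiaPaCa2, and the leading one (chr9:9924985-12706094) held 49 MiaPaCa2 loci and no protein-coding gene. CFPAC1 had more peaks in both of its libraries, and the stretches were not counted again with lists of equal length. Peak lists do not give copy number, and its part in these stretches was not tested.

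The lines were also compared after IFN-β, in other libraries of the same model. Treated and untreated libraries share the estimate of spread and the choice of gene end, so the comparisons are not independent. In those libraries 24.6% of genes were higher in MiaPaCa2 and 17.9% lower. Of the 4500 genes higher in untreated MiaPaCa2, 3137 (69.7%) were also called higher in treated MiaPaCa2 and 0 lower, and of the 3080 lower genes 2389 (77.6%) were also called lower and 2 higher. Of the 661 distinct list members tested, 154 were higher in untreated MiaPaCa2, 116 of them also in treated cells, and 252 were lower, 194 of them also in treated cells. KLF5 had 0 bp in both libraries of treated MiaPaCa2, against 6953 and 5457 bp in treated CFPAC1, and TP63 7362 and 9134 bp in treated MiaPaCa2, against 0 bp in both libraries of treated CFPAC1, in the windows of the test. The difference between the lines changed with treatment, by a test of the difference itself, at 9 genes (0.058% of those tested). Of these, 4 had been called in untreated cells. XAF1 had 2845 and 2648 bp in treated MiaPaCa2, against 4755 and 4588 bp in treated CFPAC1, with a smaller gap than in untreated cells (adjusted p of the change = 0.00322). ACSL5 had 1058 and 924 bp in treated MiaPaCa2, against 5538 and 5660 bp in treated CFPAC1 (adjusted p of the change = 0.0143). CCDC33 and TSPAN2 were the other two (adjusted p = 0.0178 and 0.0487).

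**Figure D5:**
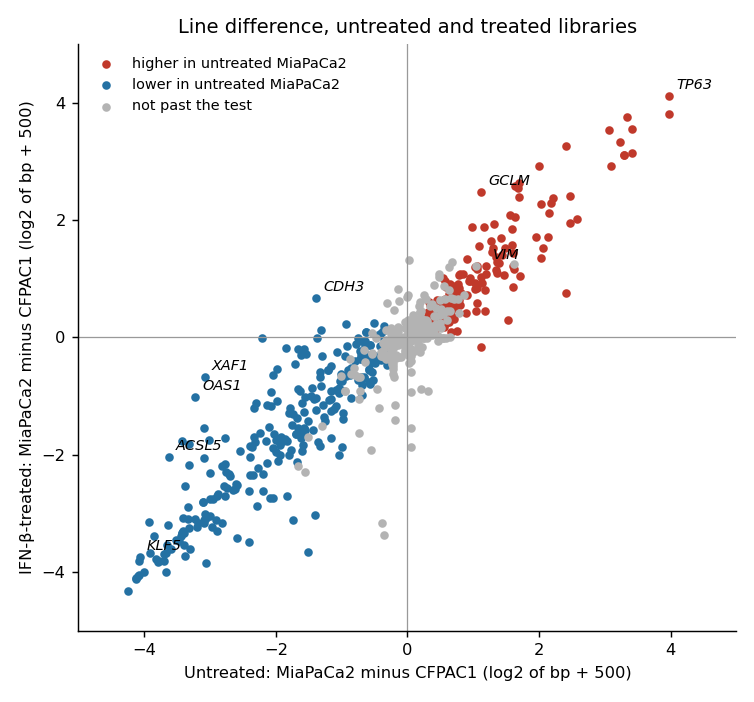
Difference between MiaPaCa2 and CFPAC1 in untreated libraries (x axis) and in IFN-β-treated libraries (y axis), log2 of bp + 500, for the 661 tested members of the gene lists; red points were called higher and blue points lower in untreated MiaPaCa2. KLF5 and TP63 lie far from 0 on both axes, and XAF1 lies nearer 0 on the treated axis (adjusted p of the change = 0.00322). OAS1 did not pass that test (adjusted p = 0.154), and points of genes at 0 bp in a line depend on the 500 bp added.

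Base composition was described for promoters. Among genes with a listed start within 1 kb of the window centre, the 250 bases before it were compared. They were 2726 higher and 1747 lower genes, of 9491 tested genes with such a start. The printed ACSL5 promoter, 1152 bp from its window centre, was not among them. CpG was at or above 0.6 of the count that base composition gives in 82.3% of promoters higher in MiaPaCa2 and 65.3% of those lower, against 78.7% of all. It was 44.7% in the 645 lower genes at 0 bp in MiaPaCa2, and 64.4% in the 284 higher genes at 0 bp in CFPAC1. Motifs were sought as exact letters on both strands. The AP-1 site TGANTCA was in 3.04% of higher, 5.95% of lower and 4.04% of all promoters, in 9.77% of the lower ones at 0 bp in MiaPaCa2 and in 2.11% of the higher ones at 0 bp in CFPAC1. The GATA site AGATAA was in 3.96% of higher, 6.98% of lower and 4.80% of all promoters, and in 9.46% and 7.04% of those same on-or-off sets. The ETS site CCGGAAGT was in 7.96% of higher, 3.09% of lower and 7.11% of all, but in 0.775% of the lower ones at 0 bp in MiaPaCa2 and 1.76% of the higher ones at 0 bp in CFPAC1. The other motifs marked in the printed promoters were in 6.10% (TATAAA), 34.9% (CCAAT), 36.3% (GGGCGGGG), 9.23% (GGAATG) and 1.93% (TGTTTAC) of all promoters. A match is a description of letters, not a site.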

How the data were processed

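H3K27ac ChIP-seq was deposited as 12 narrowPeak lists, 1 per library. The submitters' processing notes name Trimmomatic 0.38, Bowtie2 2.2.6, SAMtools, the peak caller MACS2 2.1.0.20150731 and the build GRCh38. Each deposited list gives a score, a fold enrichment (a ratio) and −log10 p- and q-values per peak, made by the authors' peak caller in each library on its own. Peaks were called per library, and whether an input was used is not given in the sources used here.

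Covered length was counted within 5 kb of a gene end, taken as log2(bp + 500), centred on the library mean and fitted with limma 3.58.1 in R 4.3.3 as 1 model of 6 groups over 12 libraries, for the 15513 genes covered in at least 2 libraries. Adjusted p-values are Benjamini-Hochberg over those genes, and a call needs an adjusted p under 0.05. RefSeq lists a start for 79.2% of protein-coding genes, so the gene end with the larger mean coverage was used and listed starts were an alternative. The fit was also run on simulated data, where all groups shared a mean except at a small set of genes. These data differ from that setting, so the run does not vouch for the calls. Loci are merged overlapping peaks of the 4 untreated libraries. Python 3.11.15, pandas 2.3.3 and scipy 1.17.1 were used.

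Named genes are the 12 largest differences in each direction, list members, the 8 loci and 10 genes in each direction that lead by fold or by distal loci, and the 10 in each direction with the broadest coverage against 0 bp. ME2, MEX3C, CCDC33, TSPAN2, MTAP, IFNB1 and HMGA2 were chosen after their values were seen. The members and lists were chosen with earlier results of these data known. Alternatives were the pseudocount, window, filter, scaling, peak set, libraries in the fit, replicate block and leaving out each library. Depth is unknown, since the lists hold no read counts, and no counting interval is given. Results for a few genes are not reported here.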

Additional observations from a re-analysis of the deposited data

Results flagged for a closer look

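The line difference changed with IFN-β at 9 genes, by limma's test of the difference between the treated and the untreated contrast, adjusted over all genes. The changes below are treated minus untreated, on the log2(covered bp + 500) scale. At every gene but CCDC33 a line had 0 bp in both libraries of a condition, so the size of the change there is set in part by the 500 bp added and is not a fold. CCDC33 had 8727 and 9431 bp in treated MiaPaCa2, against 1172 and 1054 bp in treated CFPAC1, and 9910 and 9442 bp in untreated MiaPaCa2, against 7450 and 4984 bp in untreated CFPAC1 (change 1.88, adjusted p = 0.0178). At its listed start the untreated CCDC33 difference was -0.61 and did not pass (limma adjusted p = 0.253). XAF1 (change 2.41, adjusted p = 0.00322) and ACSL5 (1.59, 0.0143) had 0 bp in both untreated MiaPaCa2 libraries and peaks in the treated ones. TSPAN2 had 0 bp in all 4 MiaPaCa2 libraries, against 229 and 223 bp in treated CFPAC1 and 1865 and 1953 bp in untreated CFPAC1 (change 1.67, adjusted p = 0.0487).

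The other 5 had 0 bp in the MiaPaCa2 libraries, treated and untreated, and peaks in treated CFPAC1: APOBEC3A with 2040 and 1738 bp (change -2.32, limma adjusted p = 0.0143), CXCL11 with 5785 and 3729 bp (-3.02, 0.0158), LINGO1 with 5982 and 3300 bp (-3.38, 0.0143), MORC1 with 3431 and 2573 bp (-2.86, 0.012) and PNOC with 1706 and 2090 bp (-2.32, 0.0143). Untreated CFPAC1 had 56 and 296 bp at CXCL11 and 0 bp in both libraries at APOBEC3A, LINGO1, MORC1 and PNOC. The LINGO1 window was centred on the lower coordinate of the gene, chr15:77613027. Where the windows of these 5 genes lie against listed starts is not given here. The contrasts share the estimate of spread.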

How the results depend on the processing

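Genes higher in MiaPaCa2 numbered 3590 to 5203 and lower genes 2769 to 3290 over the alternatives that kept all 4 libraries with gene-end windows of 5 or 10 kb, and 3438 and 2493 with windows of 2 kb, each within 1.5 times of the counts reported. Without 1 library they numbered 3148 to 3566 and 2514 to 2768. The replicate block gave 4395 higher and 3032 lower genes. The numbers are not shown to pair the libraries: deviations of same-numbered untreated libraries correlated at 0.172, over 2 pairs. Windows at gene starts left 96 higher list members, where fewer genes have a start. Of the 194 called genes named, 143 kept their call in every alternative that tested them, and the setting with the most lost calls was windows of 2 kb (25). Direction changed at TEAD1 with windows of 2 kb (0.0629) and, with windows at gene starts, at LOC124909439 (0.29), TCF7L1 (1.95, set by the 500 bp added, as CFPAC1 had 0 bp there), GOT1 (0.17), CNNM1 (0.34), ICAM1 (-0.40) and CCDC33 (-0.61); the cause was not tested. Without the first CFPAC1 library SNAP25 differed by 1.23 (limma adjusted p = 0.241), without the second ITGA5 by 0.31 (0.359), and without the first MiaPaCa2 library SLC7A11 by -0.41 (0.0532).

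Locus counts depended more on the peaks used. MiaPaCa2 alone held 8909 loci with a −log10 q of at least 5 and 6537 with peaks within 1 kb merged. CFPAC1 alone held 19265 with lists trimmed to equal length and 19051 with peaks merged. Without 1 library the counts were 18093 to 48136 for MiaPaCa2 and 35588 to 62916 for CFPAC1, where a class needs 1 library fewer, and MiaPaCa2 then held more than CFPAC1 without either MiaPaCa2 library. The distal share of MiaPaCa2-only loci was 69.9% at the stricter q, 68.4% with equal peaks, 72.2% merged and 69.4 to 74.1% without 1 library. For CFPAC1 it was 81.5% with peaks over 25% of the locus, 80.7% at the stricter q, 81.3% with equal peaks, 84.4% merged and 81.3 to 84.1% without 1 library. The distal share was higher for CFPAC1 in each of these settings.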
